A study of Mus musculus with 34 samples.

Results

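The 48 genes described here drive or mark the cell division cycle. They were chosen by name, as genes of the cycle, and each was read from the brightest of its probe sets that are annotated to 1 gene symbol, out of 19938 genes with such a probe set. By role they are 8 cyclins and kinases of G1, 9 brakes and E2F factors of G1, 10 genes of replication licensing and S phase, and 21 genes of G2 and M phase. A probe set was found for 47 of them, and Ccnb1 is not analysed here.

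CD4+ cells were taken from spleens with magnetic CD4 beads, and their RNA was hybridised to Affymetrix arrays. The mice were females of 8 weeks from 5 inbred strains, namely 129X1/SvJ, DBA/2J, C57BL/6J, A/J and Balb/c. The T0 groups were untreated, and the T1 groups received phorbol 12-myristate 13-acetate (PMA) at 10 ng/ml and ionomycin at 1 uM for 4 h, a drug pair that activates protein kinase C and raises calcium in the cell. The medium held 10% fetal calf serum. The protocol can be read as culturing both groups for those 4 h, while the labels call T0 basal, so the time T0 cells spent in culture is unsettled. A/J and C57BL/6J had 4 arrays at each time and the other strains 3, or 34 arrays in all. The labels call the replicates biological, without naming the animals behind each, so p-values measure the spread between these samples. The CD4 T cell markers had a mean level of 9.25 to 9.63 in the 5 T0 groups, and 6 of 6 immediate targets of such stimulation rose, by a median of 3.02.

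Resting T cells sit outside the cycle in a quiescent state. On activation, D-type cyclins with Cdk4 and Cdk6, and later cyclin E with Cdk2, act on the retinoblastoma family (Rb1, Rbl1 and Rbl2), which then frees E2F factors to switch on genes of DNA replication. The CDK inhibitors, of which Cdkn1b (p27) is best known in resting T cells, hold those kinases back. Genes of G2 and mitosis follow later in the cycle, and T cells need about a day to reach their first division, so 4 h of stimulation falls in the early part of the passage out of quiescence.

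The values are log2 intensities, so a difference of 1 is a doubling. A gene was tested if at least 1 of its 10 group means was 5.327 or more, a limit set at the table's median, and 44 of the 47 members and 11413 genes in all passed. Bub1, Ttk and Cenpe, a checkpoint kinase, a spindle kinase and a kinetochore motor, did not reach it: at T0 their group means ran from 4.39 to 5.12 for Bub1, 4.45 to 4.84 for Ttk and 4.42 to 5.07 for Cenpe, and at T1 from 4.04 to 4.88, 4.36 to 4.81 and 3.62 to 4.95. "Called" means an adjusted p under 0.05 in limma, a linear model over all 34 arrays, adjusted over all genes tested. Since the arrays had been scaled to alike distributions, every change is relative to the other genes, and in such bulk samples fewer cells of a type and less RNA per cell cannot be told apart.

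After 4 h of stimulation, 14 of the 17 G1 members were called (82.4%, about the 82.3% of all genes tested), and 5 of the 17 members of G2 and M phase tested (29.4%). The G1 cyclins and kinases Cdk6, Ccnd2 and Cdk4 rose, while the brakes Rbl2, Rbl1, Cdkn1b and Rb1 fell, together with Ccnd3 and Cdk2. Most replication genes fell by less than 1 log2, and the 5 calls of G2 and M phase were all falls. The M phase genes differed instead between strains and between arrays of a strain, most often highest in A/J and lowest in 129X1/SvJ.

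The promoters of members were read because the M phase genes moved together from array to array, and a few are shown to let the letters be compared. The sequences are RefSeq's on GRCm38.p6, each the 200 bases before the gene's first listed start, and all 6 genes lie on the minus strand. Capitals mark 3 motifs on either strand, so reverse complements are in capitals too. They are the box CCAAT, the element TTTGAA, and E2F sites searched as TTTGGCGC, as TTTCGCGC and as TTTCCCGC. Ccnb2 (chr9:70421555-70421754), Mki67 (chr7:135716380-135716579), Cdk1 (chr10:69352913-69353112) and Top2a (chr11:99024190-99024389) are G2 and M phase genes, Mcm6 (chr1:128359706-128359905) is a replication gene and Rbl1 (chr2:157204535-157204734) a brake.
Ccnb2: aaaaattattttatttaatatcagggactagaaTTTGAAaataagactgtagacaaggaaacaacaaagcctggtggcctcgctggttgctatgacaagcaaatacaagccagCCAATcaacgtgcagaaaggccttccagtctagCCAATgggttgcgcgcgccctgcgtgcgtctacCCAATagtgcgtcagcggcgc
Mki67: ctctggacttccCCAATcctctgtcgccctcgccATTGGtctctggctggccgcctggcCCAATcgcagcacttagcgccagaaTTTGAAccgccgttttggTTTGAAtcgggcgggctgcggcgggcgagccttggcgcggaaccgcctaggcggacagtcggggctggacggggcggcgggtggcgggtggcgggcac
Cdk1: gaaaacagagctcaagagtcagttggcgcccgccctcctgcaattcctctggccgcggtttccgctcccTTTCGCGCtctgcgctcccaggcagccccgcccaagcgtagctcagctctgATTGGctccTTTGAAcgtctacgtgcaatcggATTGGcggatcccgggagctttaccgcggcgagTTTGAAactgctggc
Top2a: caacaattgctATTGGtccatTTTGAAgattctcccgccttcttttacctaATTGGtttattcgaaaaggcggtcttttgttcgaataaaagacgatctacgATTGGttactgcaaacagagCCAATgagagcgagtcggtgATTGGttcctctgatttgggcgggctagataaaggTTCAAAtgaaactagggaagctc
Mcm6: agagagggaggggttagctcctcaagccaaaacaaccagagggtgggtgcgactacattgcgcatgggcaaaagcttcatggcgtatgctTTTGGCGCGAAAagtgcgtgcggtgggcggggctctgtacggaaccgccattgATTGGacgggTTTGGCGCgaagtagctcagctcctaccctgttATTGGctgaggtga
Rbl1: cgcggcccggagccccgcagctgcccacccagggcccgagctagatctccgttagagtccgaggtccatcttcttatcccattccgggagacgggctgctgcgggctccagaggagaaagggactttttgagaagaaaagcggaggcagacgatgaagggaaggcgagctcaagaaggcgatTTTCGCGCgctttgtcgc
In the Mcm6 sequence, 2 of the 3 E2F matches overlap and form 1 run of capitals.

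RefSeq's table held promoters of 39 of the 48 members. The 17 G2 and M phase genes among them are not the 17 tested for expression. They include Ccnb1, Bub1, Ttk and Cenpe, which were not tested, while Ccna2, Aurkb, Tpx2 and Foxm1 had no promoter entry. CCAAT, on either strand, lay in the window of 15 of 17 G2 and M phase genes (88.2%) and 7 of 9 S phase genes (77.8%), against 2 of 5 G1 cyclins and kinases (40%), 3 of 8 brakes and E2F factors (37.5%) and 32.7% of all 27025 genes in the table. TTTGAA, the core letters of the element known from genes of late cycle phases, lay in 7 of 17 G2 and M phase genes (41.2%), namely Ccnb2, Mki67, Cdk1, Top2a, Cdc20, Kif11 and Prc1, in 2 of 8 brakes and E2F factors (25%), in 1 of 9 S phase genes (11.1%), in 0 of 5 G1 cyclins and kinases and in 14.4% of all genes. The E2F letters lay in 4 of 9 S phase genes (44.4%), Mcm5, Mcm6, Mcm7 and Cdc6, in 2 of 8 brakes and E2F factors (25%, Rbl1 and E2f3), in 1 of 5 G1 cyclins and kinases (20%, Cdk2), in 1 of 17 G2 and M phase genes (5.88%, Cdk1) and in 1.52% of all genes. These are counts of letters and not of bound sites, and a gene with several starts was counted where any of them held the letters. All 4 G2 and M phase sequences shown hold both CCAAT and TTTGAA, unlike most of that group. Nusap1 and Birc5, which are not shown, held none of the 3 motifs.

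Of the 44 members tested, 27 were called for the difference between T1 and T0 averaged over the 5 strains, which is 61.4% against 82.3% of all 11413 genes. There were 8 rises and 19 falls, where 36% of all genes rose and 46.3% fell. The median difference was -0.18 log2 over members and -0.07 over all genes, and the median size was 0.27 and 0.38. A call with a change of at least 1 log2 was found for 8 members, 4 of the G1 cyclins and kinases and 4 of the brakes, and for 15.8% of all genes. Within A/J, 5 members rose and 12 fell, where 20.3% of all genes rose and 36.3% fell (56.6% called). Within Balb/c it was 5 and 10, against 20.6% and 34.1% (54.7% called). C57BL/6J gave 4 rises and 14 falls, against 25.1% and 38.6% (63.7% called). DBA/2J had 3 and 11, against 23.8% and 36.2% (60% called), and 129X1/SvJ 5 and 13, against 21.6% and 34.7% (56.3% called).

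**Figure D1:**
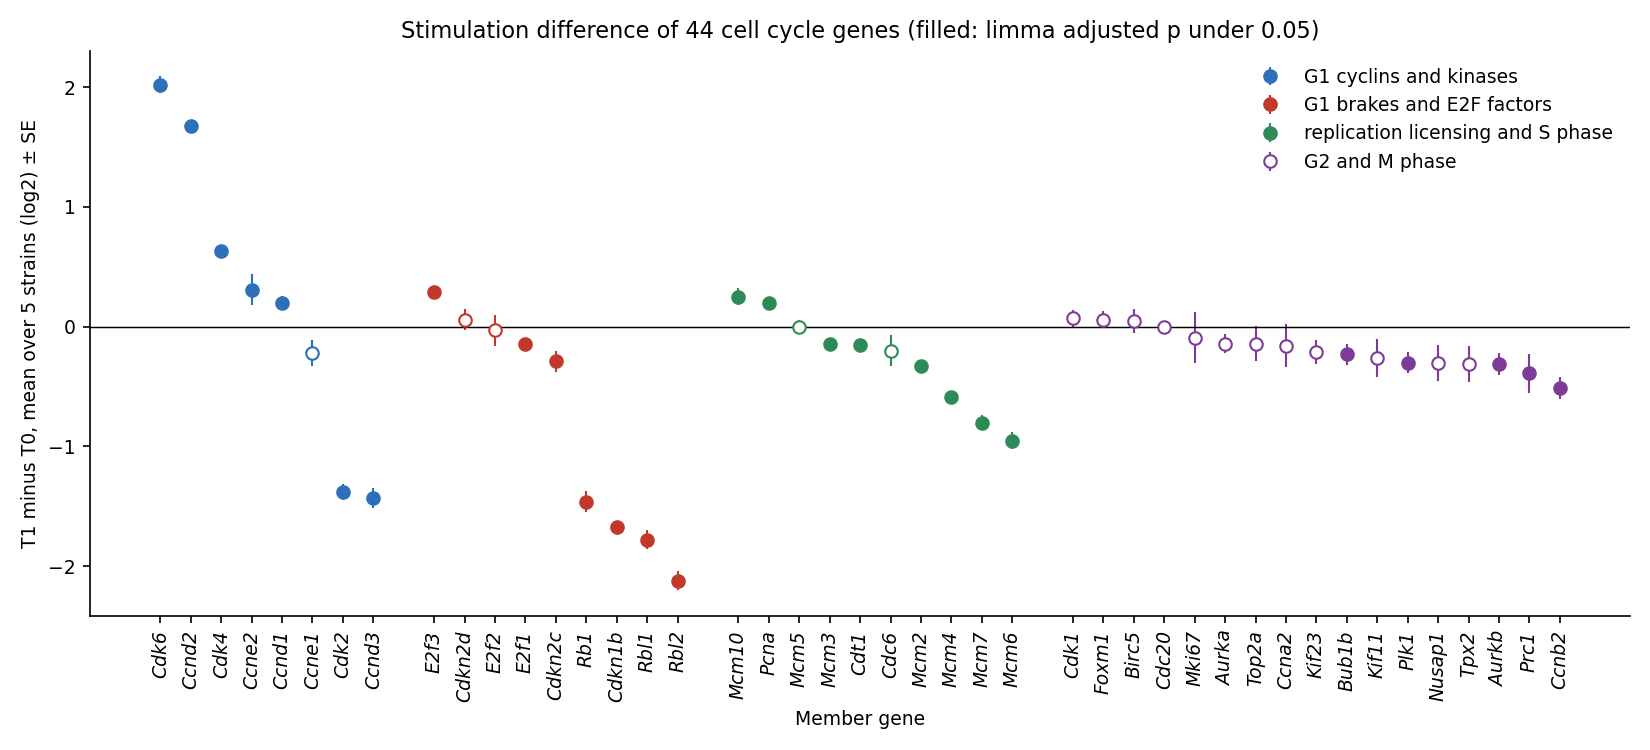
Each point is 1 of the 44 member genes tested, with the log2 difference of T1 minus T0 averaged over 5 strains and its standard error, ordered within 4 role groups; filled points were called by limma. The G1 groups spread from -2.12 (Rbl2) to 2.02 (Cdk6), and the G2 and M phase group lies between -0.51 (Ccnb2) and 0.07 (Cdk1).

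Cdk6, a kinase partner of the D cyclins, had the highest rise. Its 17 T0 arrays ran from 7.41 to 8.40 with a median of 7.74, and its 17 T1 arrays from 9.16 to 10.43 with a median of 9.74, so the times did not overlap. The mean difference was 2.02 (SE 0.07, 4.05-fold, limma adjusted p = 4.6e-22), and it was called in all 5 strains, from 1.70 in A/J to 2.30 in Balb/c. Cdk4, the kinase that shares those cyclins, rose by 0.63 (SE 0.05, adjusted p = 3.48e-12), from a T0 median of 9.44 to a T1 median of 10.14. The lowest T1 array of Cdk4 (9.63) lay below its highest T0 array (9.73), and the rise was called in all 5 strains.

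The 3 D-type cyclins went different ways. Ccnd2 rose by 1.68 (SE 0.05, 3.20-fold, limma adjusted p = 2.37e-24), with T0 arrays at 9.94 to 10.58 and T1 arrays at 11.28 to 12.47. Ccnd3 fell by 1.43 (SE 0.08, 2.69-fold, adjusted p = 1.27e-16), with T0 arrays at 7.81 to 8.63 around a median of 8.45 and T1 arrays at 6.11 to 7.55 around 7.04. Neither gene's times overlapped. Ccnd1 rose by 0.20 (SE 0.06, adjusted p = 0.00354), near the bottom of the measured range, with 3 of its 10 group means under 5.327. The Ccnd1 call was lost within replicate numbers 1 and 2 (adjusted p = 0.168).

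Cdk2, which pairs with cyclins E and A at the entry to and through S phase, fell by 1.38 (SE 0.07, 2.60-fold, limma adjusted p = 2.66e-17). Its T0 arrays lay at 8.54 to 9.10 and its T1 arrays at 6.95 to 7.84, with no overlap. Of the cyclins E, Ccne2 rose by 0.31 (SE 0.13, adjusted p = 0.0277) and Ccne1 gave -0.22 (SE 0.11, adjusted p = 0.0658). The Ccne2 call was lost without replicate 2 of Balb/c T0 (0.0709) or replicate 4 of Balb/c T1 (0.0594), and 6 of its group means were under 5.327. Ccne1 became a called fall when 1 of 5 arrays was left out. These were Balb/c T1 replicate 4 (0.0122), replicate 2 of the T0 arrays of Balb/c (0.0319) or of A/J (0.044), A/J T1 replicate 5 (0.0357) and C57BL/6J T1 replicate 3 (0.0488). The G1 cyclins and kinases thus gave 5 rises and 2 falls among 8 genes (87.5% called, against 82.3% of all genes).

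**Figure D2:**
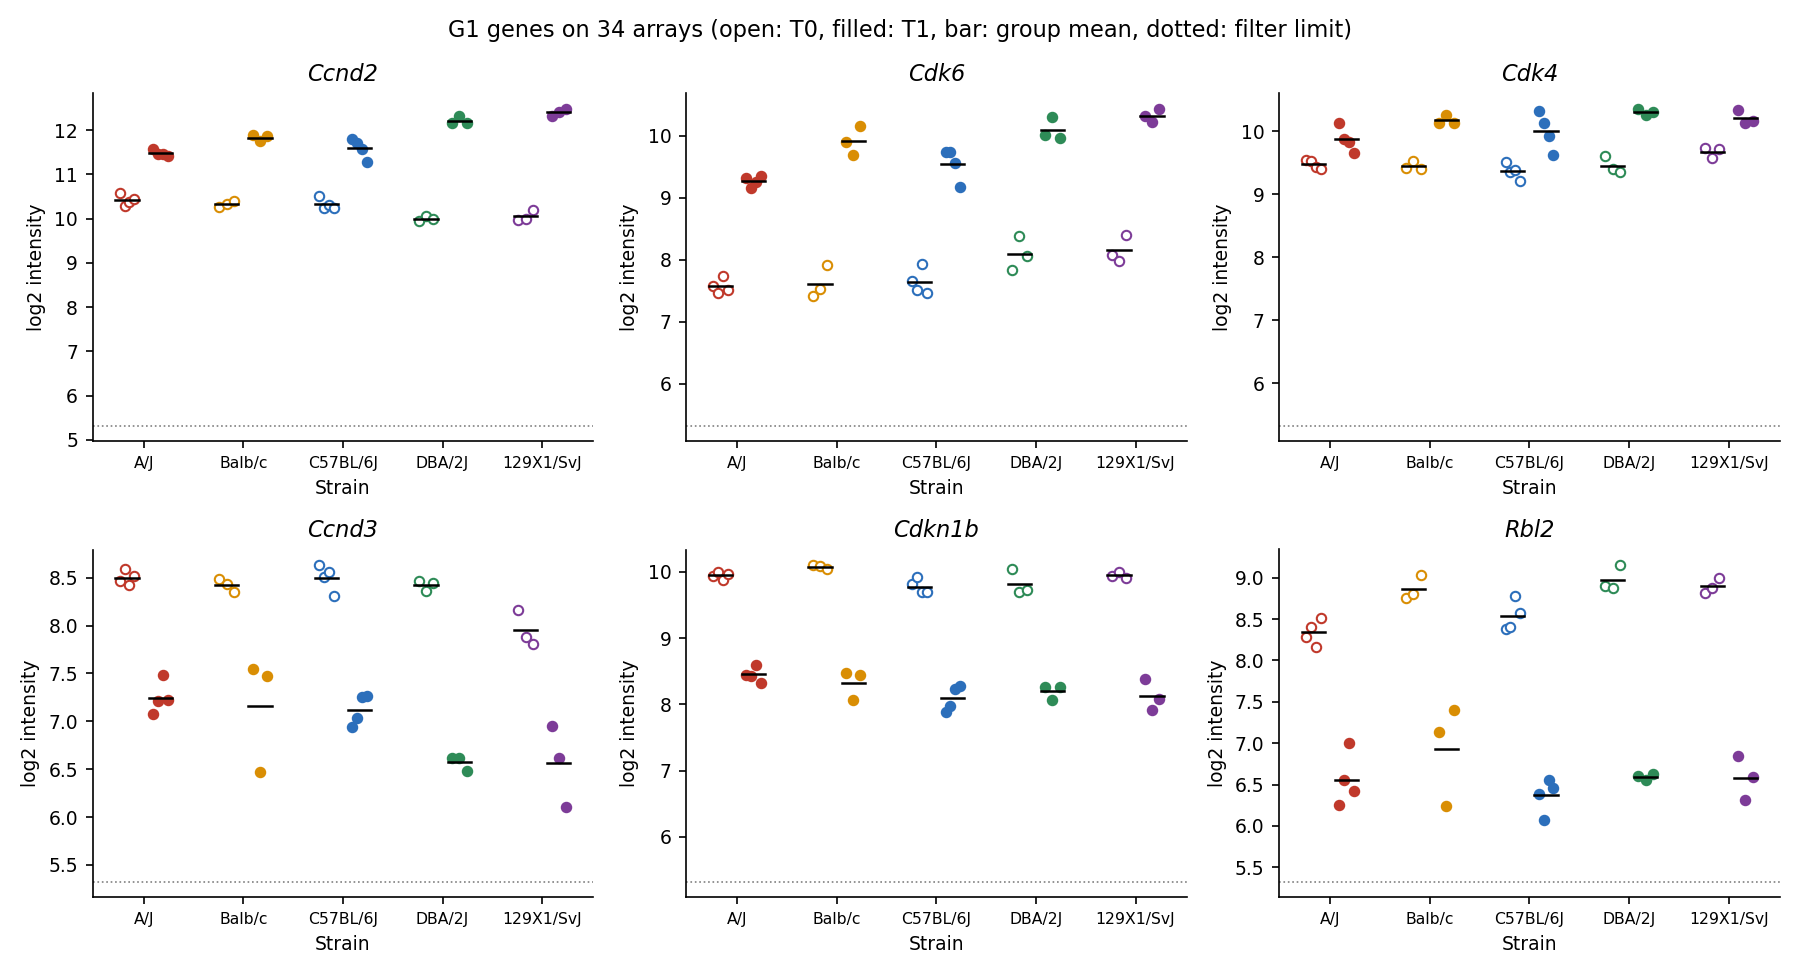
Log2 intensities of 6 G1 genes on each of 34 arrays by strain, open circles for T0 and filled for T1, with a bar at each group mean and a dotted line at the filter limit of 5.327. Ccnd2 and Cdk6 are higher on all T1 arrays than on all T0 arrays, and Ccnd3, Cdkn1b and Rbl2 are lower; the Ccnd2 step is smallest in A/J (1.05) and largest in 129X1/SvJ (2.34).

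The retinoblastoma family and Cdkn1b fell. Rbl2 (p130), the family member that keeps cycle genes off in quiescent cells, gave the deepest fall of all members, by 2.12 (SE 0.08, 4.33-fold, limma adjusted p = 3e-20), from 8.16 to 9.15 on T0 arrays to 6.07 to 7.40 on T1 arrays. Rbl1 (p107) fell by 1.78 (SE 0.08, 3.44-fold, adjusted p = 4.83e-19), from a T0 median of 8.26 to a T1 median of 6.48. Rb1 fell by 1.46 (SE 0.09, 2.74-fold, adjusted p = 1.75e-15), from 8.83 to 9.41 on T0 arrays to 7.01 to 8.36 on T1 arrays. Each of these 3 was called in all 5 strains, with no T1 array as high as any T0 array.

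Cdkn1b fell by 1.67 (SE 0.05, 3.19-fold, limma adjusted p = 7.19e-23), from a T0 median of 9.94 to a T1 median of 8.27 with no overlap. A second Cdkn1b probe set, dimmer at a mean of 6.78, gave -1.90 (SE 0.13). The INK4 inhibitors, which bind Cdk4 and Cdk6, gave smaller values: Cdkn2c fell by 0.29 (SE 0.09, adjusted p = 0.00538) and Cdkn2d gave 0.06 (SE 0.09, adjusted p = 0.536). Without Balb/c T1 replicate 2, Cdkn2d was called as a rise (adjusted p = 0.0116).

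Of the E2F factors, E2f1 fell by 0.14 (SE 0.05, limma adjusted p = 0.0163), E2f2 gave -0.03 (SE 0.13, adjusted p = 0.811), and E2f3 rose by 0.29 (SE 0.05, adjusted p = 1.34e-05). The E2f1 call was lost after a second quantile normalization (0.0544). E2f3 is dim, with 7 of 10 group means under 5.327, and its other probe set gave 0.05 (SE 0.05, adjusted p = 0.366), so its probe sets disagree. The group of brakes and E2F factors gave 1 rise and 6 falls among 9 genes (77.8% called, against 82.3% of all genes).

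A wider list of 29 genes of G1 control that are not members, 28 of them tested, gave 11 rises and 12 falls, or 82.1% called, with a median difference of -0.01. E2f5, a repressive E2F, rose by 1.16, the phosphatase Cdc25a by 0.41 and the INK4 gene Cdkn2b by 0.40. Ccng2, a cyclin that accompanies cell cycle arrest, fell by 2.59 (SE 0.06), Ccng1 by 1.33 and Lin9, a subunit of the complex that p130 joins in quiescence, by 0.86.

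Most replication genes fell. The MCM2 to MCM7 proteins form the helicase that is loaded on DNA before S phase, and Mcm6 had the deepest fall of them. Mcm6 T0 arrays ran from 8.91 to 9.90 with a median of 9.25, T1 arrays from 7.54 to 9.02 with a median of 8.62, and the difference was -0.95 (SE 0.07, 1.93-fold, limma adjusted p = 2.79e-14). The times overlapped for Mcm6, though not for Mcm7, which fell by 0.80 (SE 0.06, adjusted p = 2.62e-14), or Mcm4, which fell by 0.59 (SE 0.04, adjusted p = 2.06e-13). All 3 were called in all 5 strains.

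Mcm2 fell by 0.33 (SE 0.05, limma adjusted p = 2.35e-06) and Mcm3 by 0.14 (SE 0.05, adjusted p = 0.0184), while Mcm5 gave 0.00 (SE 0.06, adjusted p = 0.989). The genes of 1 helicase ring thus differed by up to 0.95 in their response. Of the factors that load it, Cdt1 fell by 0.15 (SE 0.05, adjusted p = 0.00641) and Cdc6 gave -0.20 (SE 0.13, adjusted p = 0.17).

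The rises were Pcna, the sliding clamp of DNA polymerases, by 0.20 (SE 0.05, limma adjusted p = 0.0003), and Mcm10, which acts when the helicase fires, by 0.25 (SE 0.07, adjusted p = 0.0015). Mcm10 was called in no single strain, and its 5 strain differences ran from 0.21 to 0.31. Both Pcna probe sets rose, the second by 0.21. Of 10 genes, 2 rose and 6 fell (80% called, against 82.3% of all genes), and no difference averaged over strains reached 1 log2. Within strains, some falls were deeper: Mcm7 fell by 1.12 in C57BL/6J, and Mcm6 by 1.25 in 129X1/SvJ and 1.39 in DBA/2J.

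Among 47 other genes of replication and nucleotide supply, 43 were tested, of which 6 rose and 30 fell, or 83.7% called, with a median of -0.26. Rpa1, of the protein that coats single-stranded DNA, fell by 1.92 (SE 0.07), the polymerase subunit Pole2 by 1.77 and Gins4, of the active helicase, by 1.27. Pold2, a subunit of polymerase delta, rose by 1.29 (SE 0.07), and the origin recognition genes Orc2 and Orc6 by 0.43 and 0.34.

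**Figure D3:**
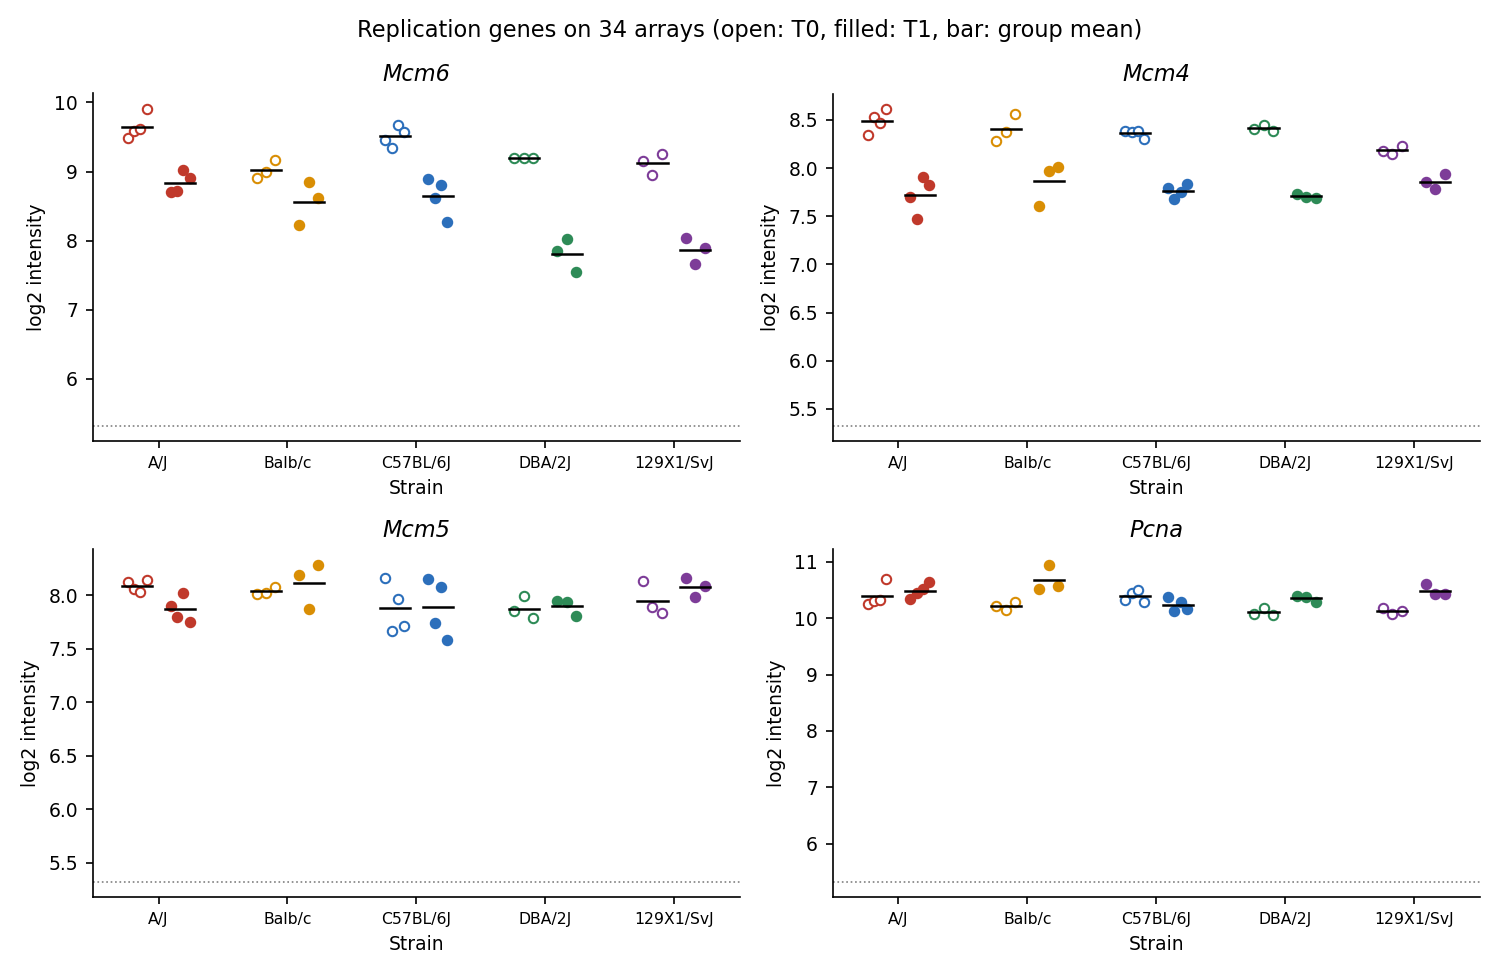
Log2 intensities of 4 replication genes on each of 34 arrays by strain, open circles for T0 and filled for T1, with a bar at each group mean. Mcm6 is lower at T1 in all 5 strain means, by 0.45 in Balb/c and 1.39 in DBA/2J; Mcm5 differs by 0.00 on average, and Pcna is higher at T1 except in C57BL/6J.

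Of 17 genes of G2 and M phase tested, 5 were called for stimulation (29.4%, against 82.3% of all genes tested), all falls, and 12 were not. Ccnb2, a mitotic cyclin, had the deepest fall, by 0.51 (SE 0.09, 1.43-fold, limma adjusted p = 9.12e-06), from a T0 range of 6.11 to 7.64 to a T1 range of 5.22 to 7.05. The times overlapped, and the fall was called in C57BL/6J (by 0.74) and 129X1/SvJ (by 0.84). Prc1, which bundles the central spindle, fell by 0.39 (SE 0.16, adjusted p = 0.0229), the kinase Aurkb by 0.31 (SE 0.09, adjusted p = 0.00273) and the kinase Plk1 by 0.30 (SE 0.09, adjusted p = 0.00218). Bub1b, of the spindle checkpoint, fell by 0.23 (SE 0.09, adjusted p = 0.0258).

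Several of these calls rest on few arrays. The Prc1 call was lost without Balb/c T1 replicate 2 (limma adjusted p = 0.0579) or Balb/c T0 replicate 4 (0.0571), and that of Bub1b without Balb/c T1 replicate 1 (0.0581), Balb/c T0 replicate 4 (0.0616) or DBA/2J T0 replicate 3 (0.0515). After a second quantile normalization Aurkb (0.0648) and Bub1b (0.0579) were not called, and Cdk1 (0.0309) and Cdc20 (0.0295) were called. The count of G2 and M phase genes called was 3 without Balb/c T0 replicate 4, 8 without Balb/c T0 replicate 2 or C57BL/6J T1 replicate 3, and 10 without Balb/c T1 replicate 4. The main fit held no replicate block, so spread shared by same-numbered arrays stays in its errors. With strain and number as a random replicate block the count was 8. With the number over strains as a fixed replicate block it was 10. Of all 11413 genes tested, 4113 rose and 5279 fell in the main fit. The random block gave 4264 and 5370, and the fixed block 4229 and 5368. Without Balb/c T1 replicate 4, 4094 of 11423 genes rose and 5296 fell. Tpx2 became a called fall without any of 11 single arrays, Kif23 without any of 9 and Nusap1 without any of 6.

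The most used proliferation markers were not called for stimulation in the main fit, which held no replicate block. Mki67 (Ki-67), present in cycling cells, ran from 6.35 to 9.50 at T0 and from 5.38 to 9.64 at T1, a difference of -0.09 (SE 0.21, limma adjusted p = 0.706). Top2a, which untangles replicated DNA, gave -0.14 (SE 0.15, adjusted p = 0.393), and Ccna2, the cyclin of S and G2, gave -0.16 (SE 0.18, adjusted p = 0.395). The second Top2a probe set lay near the bottom of the scale, at a mean of 2.06, and gave -0.02. Cdk1, the mitotic kinase, gave 0.07 (SE 0.07, adjusted p = 0.37), and the remaining 8 genes lay between -0.31 (Tpx2) and 0.06 (Foxm1).

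In 50 other genes of mitosis, 44 tested, 4 rose and 23 fell (61.4% called), with a median of -0.23. Wee1, the kinase that restrains Cdk1, rose by 1.81 (SE 0.07), Cks2 by 0.49 and the kinetochore gene Spc24 by 0.21. Cdc25b, a phosphatase that activates Cdk1, fell by 1.48 (SE 0.15), the condensin subunit Smc4 by 1.30 and the kinesin Kif20b by 0.99.

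Some marker lists of cell types differed between T0 and T1 too. The mean level of 13 B cell markers lay at 7.27 to 8.19 in the 5 strains at T0 and 6.36 to 6.77 at T1, and all 13 were called, 10 of them lower. The level of 11 neutrophil markers lay at 5.24 to 6.96 at T0 and 4.85 to 5.49 at T1, with 8 of 10 tested lower. The level of 12 CD4 T cell markers lay at 9.25 to 9.63 and 8.92 to 9.54, with 5 higher and 5 lower. Both CD8 T cell markers were lower, and of 11 monocyte and macrophage markers 1 was higher and 5 were lower. Of 4 plasma and germinal centre B cell markers tested, 2 were higher and 1 lower, and 1 of 12 erythroid markers was called. The part of these shifts in the differences between T1 and T0 was not tested.

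Strain differences were found in 14 of 44 members at T0 (31.8%, against 18.5% of all genes) and in 29 at T1 (65.9%, against 31%). At T1 they included 14 of 17 G2 and M phase genes (82.4%), 6 of 8 G1 cyclins and kinases, 5 of 10 replication genes and 4 of 9 brakes and E2F factors. The median range over strains, the highest minus the lowest strain mean, was 0.93 for G2 and M phase genes and 0.34 for all genes tested. At T0 the counts were 6 of 17, 3 of 8, 2 of 10 and 3 of 9, the last falling to 1 without A/J T0 replicate 2 or 129X1/SvJ T0 replicate 2.

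The range was widest for Mki67. At T0 its arrays read 8.50, 8.19, 8.10 and 9.50 in A/J, 8.00, 6.87 and 9.09 in Balb/c, 7.46, 8.35 and 8.29 in DBA/2J, 7.34, 6.35, 8.09 and 7.02 in C57BL/6J, and 6.78, 6.48 and 6.99 in 129X1/SvJ. At T1 they read 8.94, 8.55, 8.49 and 9.64 in A/J, 8.46, 6.80 and 9.18 in Balb/c, 8.68, 7.95 and 7.87 in DBA/2J, 7.40, 6.41, 7.65 and 6.88 in C57BL/6J, and 6.03, 5.38 and 5.96 in 129X1/SvJ. All A/J arrays lay above all 129X1/SvJ arrays at both times, while the 3 Balb/c arrays spanned most of the scale. The range of strain means was 1.82 at T0 (3.53-fold, limma adjusted p = 0.0267) and 3.11 at T1 (8.66-fold, adjusted p = 9.78e-05). The T0 call was lost without A/J T0 replicate 5 (0.0849), 129X1/SvJ T0 replicate 1 (0.0597) or 129X1/SvJ T0 replicate 2 (0.0812), and with a trended, robust fit (0.0666).

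Ccna2 was also highest in A/J and lowest in 129X1/SvJ at T1, at 7.67 ± 0.49 in A/J (SD, n = 4), 7.09 ± 0.92 in Balb/c (n = 3), 6.73 ± 0.04 in DBA/2J (n = 3), 6.22 ± 0.55 in C57BL/6J (n = 4) and, lowest, 5.38 ± 0.37 in 129X1/SvJ (n = 3). The range was 2.29 (4.89-fold, limma adjusted p = 0.000489). Neighbouring strains in that order overlapped, while all 3 DBA/2J arrays (6.70 to 6.77) lay below all 4 A/J arrays (7.18 to 8.29), and the highest 129X1/SvJ array (5.75) lay below all C57BL/6J arrays but 1 (5.54). At T0 the Ccna2 range was 1.17 and not called (adjusted p = 0.17).

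Ccnb2 read 6.94, 6.85, 6.90 and 7.05 in A/J at T1, 6.57, 6.20 and 6.85 in Balb/c, 6.58, 6.35 and 6.11 in DBA/2J, 6.19, 5.69, 6.51 and 5.65 in C57BL/6J, and 5.47, 5.22 and 5.68 in 129X1/SvJ. The A/J arrays were close together and the 129X1/SvJ arrays lay lower, overlapping with C57BL/6J at 1 array of that strain (5.65). The range was 1.48 (2.78-fold, limma adjusted p = 3.37e-05). At T0 it was 0.78 (adjusted p = 0.0472), a call lost without any of 21 single arrays (up to 0.22).

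Prc1 (range 1.71, limma adjusted p = 0.00125) and the spindle gene Nusap1 (1.60, adjusted p = 0.00396) had ranges wider than that of Ccnb2 at T1, and both were highest in A/J and lowest in 129X1/SvJ. Their 129X1/SvJ means, 4.76 ± 0.28 and 4.69 ± 0.13 (SD, n = 3), lay under 5.327, so the sizes are not exact. Top2a (1.35, adjusted p = 0.0161), the kinesin Kif11 (1.27, adjusted p = 0.0337) and the spindle factor Tpx2 (1.19, adjusted p = 0.0175) followed, the last with a 129X1/SvJ mean of 5.09, also under 5.327. The call was lost for Top2a without 129X1/SvJ T1 replicate 2 (0.0772), and for Tpx2 without the same array (0.054). For Kif11 it was lost without A/J T1 replicate 4 (0.0636) or 5 (0.0755), or any of the 3 129X1/SvJ T1 arrays (0.058, 0.105 and 0.0744). The G2 and M phase genes not called over strains at T1 were Aurka, Aurkb and Bub1b.

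At T0 the other strain differences of the group were those of Nusap1 (range 1.51, limma adjusted p = 0.0119), Kif23 (0.74, adjusted p = 0.0478), Cdk1 (0.65, adjusted p = 0.0216) and Cdc20 (0.45, adjusted p = 0.00509), the last an activator of the anaphase-promoting complex. The Nusap1 call was lost without 129X1/SvJ T0 replicate 2 (0.0626), that of Cdk1 without A/J T0 replicate 5 (0.0562), 129X1/SvJ T0 replicate 2 (0.099) or 4 (0.0512), and that of Kif23 without any of 26 single arrays (up to 0.351). The 6 calls at T0 became 2 without A/J T0 replicate 5, 1 without 129X1/SvJ T0 replicate 2, and 3 without 129X1/SvJ T0 replicate 1 or 4.

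**Figure D4:**
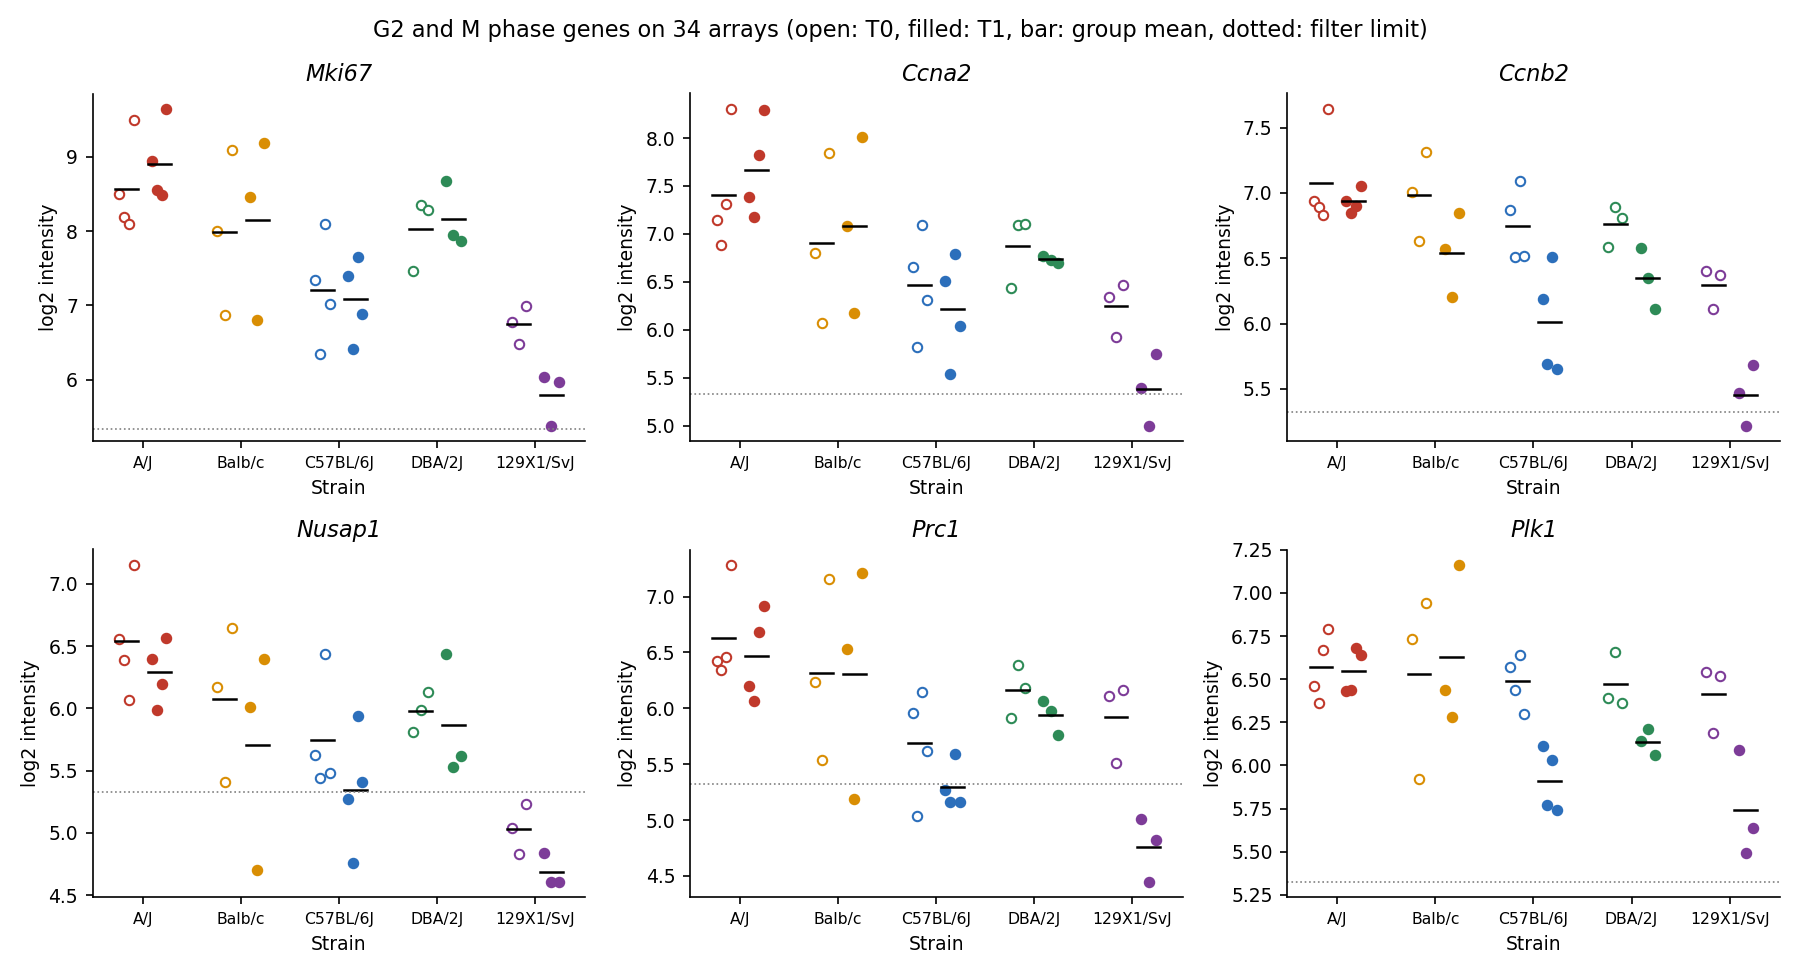
Log2 intensities of 6 G2 and M phase genes on each of 34 arrays by strain, open circles for T0 and filled for T1, with a bar at each group mean and a dotted line at 5.327. At T1, 129X1/SvJ has the lowest mean for all 6 genes, and A/J the highest for all but Plk1, which is highest in Balb/c. At T0, Prc1 is lowest in C57BL/6J, and the strain means of Plk1 have a range of 0.15. Within Balb/c the arrays of Mki67 spread from 6.80 to 9.18 at T1.

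The order of strains was shared by many of these genes. A/J had the highest and 129X1/SvJ the lowest mean in 10 of 17 G2 and M phase genes tested at T0 (58.8%) and 11 of 17 at T1 (64.7%), against 5.87% and 6.63% of all genes. In the list of other mitosis genes it was 21 of 44 at T0 (47.7%) and 23 of 44 at T1 (52.3%). In both G1 groups together it was 3 of 17 at T0 (17.6%) and 4 of 17 at T1 (23.5%).

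The same order held for markers of red cell precursors. Of 12 erythroid markers measured, 9 were highest in A/J and lowest in 129X1/SvJ at T0 and 12 at T1, and 11 and 12 were called over strains. Their mean level per array ran from 7.28 to 8.36 in A/J at T0 and from 4.87 to 5.28 in 129X1/SvJ, and 8 of the 12 lay under 5.327 in 129X1/SvJ against none in A/J. For stimulation 1 of the 12 was called, Gata1 at -0.37. Of the CD4 T cell markers, 3 of 12 had that order of strains at T0 (25%) and 4 of 12 at T1 (33.3%). Neutrophil markers had it in 0 of 10 at T0 and 1 of 10 at T1, though 7 of 10 were highest in A/J at both times. No marker in the lists of CD8 T cells, B cells, plasma and germinal centre B cells, or monocytes and macrophages had it.

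Within groups, the arrays with high M phase levels were often those with high erythroid levels. The mean over 20 G2 and M phase genes was 7.10 on A/J T0 replicate 5 against 6.23 to 6.35 on the other A/J T0 arrays, and its erythroid level was 8.36 against 7.28 to 7.82. On Balb/c T0 replicates 1, 2 and 4 the M phase level read 6.23, 5.86 and 6.84 and the erythroid level 7.34, 6.04 and 7.92. Over the 10 groups, the array with the highest M phase level also had the highest erythroid level in 8. The array with the lowest M phase level also had the lowest erythroid level in 6.

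Other lists matched that order of arrays to different degrees. With 3 or 4 arrays in a group, some matches arise by chance, also for the erythroid markers. The highest and lowest array matched those of the M phase level in 10 and 10 groups for the other mitosis genes, 7 and 8 for plasma and germinal centre B cell markers, 7 and 8 for monocyte and macrophage markers, 5 and 7 for neutrophil markers, 3 and 6 for B cell markers, 0 and 3 for CD8 T cell markers, and 1 and 0 for CD4 T cell markers. The G1 cyclins and kinases matched in 8 and 9 groups, the brakes and E2F factors in 9 and 8, and the members of replication licensing and S phase in 7 and 8. The part of these markers in the strain differences of the M phase genes was not tested.

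**Figure D5:**
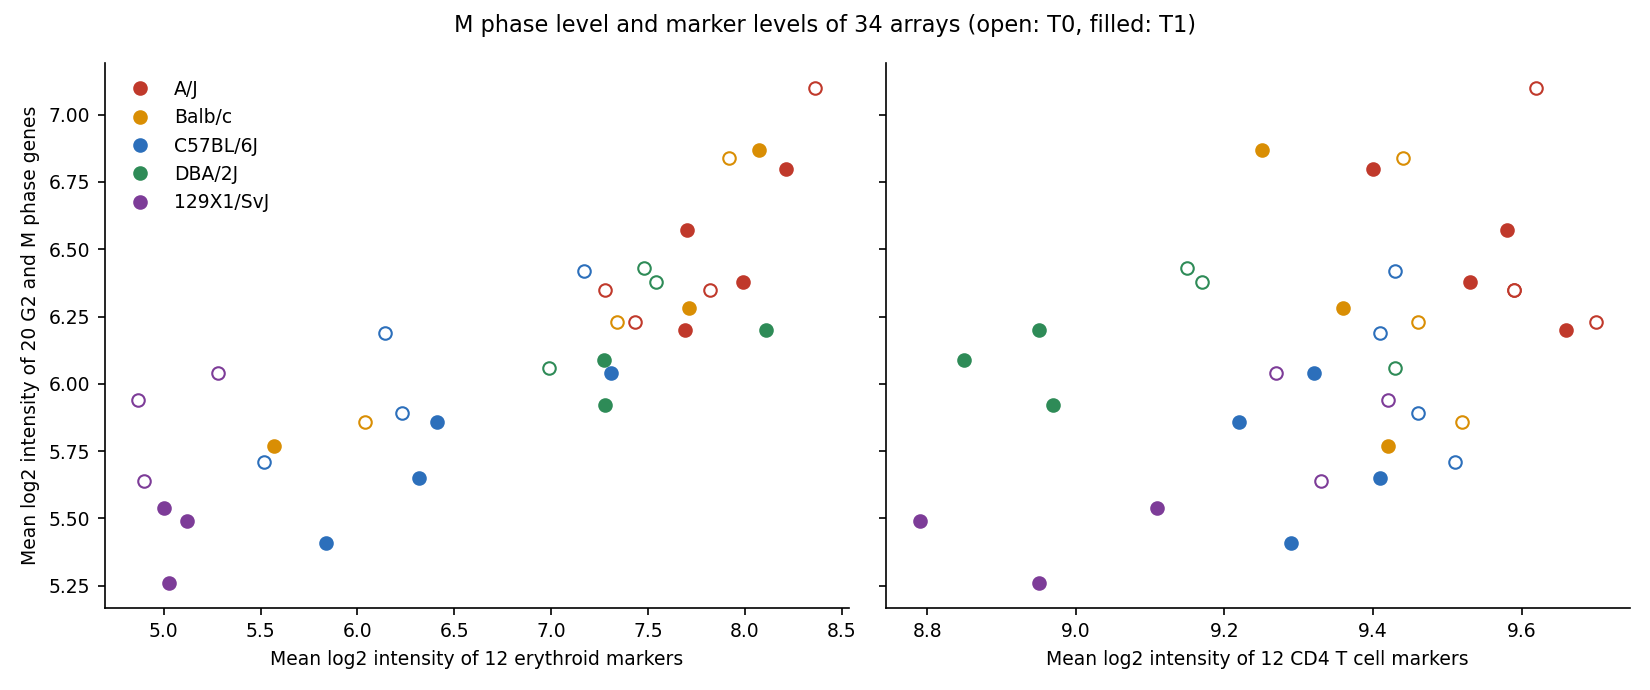
Each circle is 1 of 34 arrays, open for T0 and filled for T1, coloured by strain, with the mean log2 intensity of 20 G2 and M phase genes on the vertical axis against that of 12 erythroid markers (left) and 12 CD4 T cell markers (right). The 129X1/SvJ arrays lie lowest on the erythroid axis (4.87 to 5.28) and the A/J arrays among the highest (7.28 to 8.36), and both lists were measured on the same arrays.

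In G1, E2f2 had strain differences with the same highest and lowest strain, and was not called for stimulation. At T0 its arrays read 7.25, 7.16, 6.97 and 7.97 in A/J, 7.06, 6.25 and 7.59 in Balb/c, 6.83, 6.87 and 7.09 in DBA/2J, 6.05, 5.65, 6.62 and 6.05 in C57BL/6J, and 5.89, 5.68 and 5.96 in 129X1/SvJ. The A/J and DBA/2J arrays all lay above the C57BL/6J and 129X1/SvJ arrays. The range was 1.49 at T0 (2.82-fold, limma adjusted p = 0.000346) and 1.85 at T1 (3.60-fold, adjusted p = 0.000189).

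Cdk6 and Ccnd2 ran the other way at T1. Cdk6 was highest in 129X1/SvJ, at 10.32 ± 0.10 (SD, n = 3), followed by DBA/2J at 10.09 ± 0.19 (n = 3), Balb/c at 9.92 ± 0.23 (n = 3), C57BL/6J at 9.56 ± 0.26 (n = 4) and A/J at 9.28 ± 0.09 (n = 4). The range was 1.05 (2.07-fold, limma adjusted p = 2.05e-05), and neighbours in that order overlapped. At T0 the range of Cdk6 was 0.58 (adjusted p = 0.00473), with DBA/2J and 129X1/SvJ at 8.10 and 8.16 and the other strains at 7.57 to 7.64. Rbl2 had its lowest T0 mean in A/J (8.34 ± 0.15, n = 4) and its highest in DBA/2J (8.97 ± 0.16, n = 3), a range of 0.63 (adjusted p = 0.0364) that was not called without any of 10 single arrays (up to 0.108).

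Whether strains responded differently was tested as an interaction of strain and time, which called 3 of 44 members (6.82%, against 6.92% of all genes), Ccnd2, Mcm6 and Pcna. By limma, 0 of 17 G2 and M phase genes and 0 of 9 brakes and E2F factors were called, with Mki67 at a range of responses of 1.29 and an adjusted p of 0.723. Without Balb/c T1 replicate 2, which correlated least with its own group (0.948), 7 members were called, among them Cdkn2d (0.000673), Rbl1 (0.00862), Ccnd3 (0.0276) and Rbl2 (0.0469). The share of all genes called in that fit is not given here, so the 7 cannot be set beside 6.92%. Rbl1 was also called without A/J T1 replicate 1 (0.0499) or C57BL/6J T1 replicate 3 (0.0358).

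Ccnd2 differed most. At T1 it read 11.58, 11.46, 11.46 and 11.41 in A/J, 11.88, 11.75 and 11.86 in Balb/c, 12.16, 12.31 and 12.15 in DBA/2J, 11.80, 11.72, 11.57 and 11.28 in C57BL/6J, and 12.32, 12.41 and 12.47 in 129X1/SvJ. The 6 DBA/2J and 129X1/SvJ arrays lay above all 11 others at T1, although these strains had the lowest T0 means, 9.99 ± 0.06 and 10.06 ± 0.12 (SD, n = 3 each). The rise was 1.05 (SE 0.09) in A/J, 1.27 (SE 0.09) in C57BL/6J, 2.21 (SE 0.11) in DBA/2J and 2.34 (SE 0.11) in 129X1/SvJ, with Balb/c between C57BL/6J and DBA/2J. The range of responses was 1.29 (limma adjusted p = 2.39e-07), and the call held without each single array.

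Mcm6 fell by 0.45 (SE 0.16) in Balb/c, 0.81 (SE 0.13) in A/J, 0.86 (SE 0.13) in C57BL/6J, 1.25 (SE 0.16) in 129X1/SvJ and 1.39 (SE 0.16) in DBA/2J. At T1 the DBA/2J arrays (7.85, 8.02 and 7.54) and the 129X1/SvJ arrays (8.04, 7.66 and 7.90) lay below those of the other strains, of which the lowest was 8.23. The range of responses was 0.94 (limma adjusted p = 0.0249), a call lost without Balb/c T0 replicate 1 (0.0605) or DBA/2J T1 replicate 4 (0.0589), and when arrays were centred on their medians (0.0553). The Balb/c fall itself was not called without Balb/c T1 replicate 1 (0.147) or Balb/c T0 replicate 4 (0.0671). The strain range at T1 was 1.04 (limma adjusted p = 2.4e-06).

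Pcna rose by 0.46 (SE 0.11) in Balb/c and 0.36 (SE 0.11) in 129X1/SvJ, and gave 0.25 (SE 0.11) in DBA/2J, 0.09 (SE 0.10) in A/J and -0.15 (SE 0.10) in C57BL/6J. The range of responses was 0.61 (limma adjusted p = 0.0368), a call lost without any of 14 single arrays (up to 0.0872). No member had strain responses called in opposite directions.

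Among genes outside the 48, the interaction called 2 of 28 of G1 control (Ccng2 and Cks1b), 1 of 43 of replication (Pole2, range 1.58) and 2 of 44 of mitosis (Ndc80, and Pttg1 with a range of 1.29). Of the mitosis genes, 4 were called when Balb/c T1 replicate 2 was left out, and 1 when either C57BL/6J T1 replicate 2 or C57BL/6J T0 replicate 3 was.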

How the data were processed

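The deposited table holds log2 intensities of 35556 probe sets on 34 arrays, made by the authors with RMA (background correction, quantile normalization and a summary over probes), per the submitters' processing notes, in which no version is given. Array medians ran from 5.28 to 5.39, and no array was left out. Of the probe sets, 21789 were annotated to 1 symbol, 1621 to several and 12146 to none, in an annotation that can be old, and 21698 matched RefSeq by gene ID. The brightest probe set stood for each of 19938 genes, and 11413 genes with a group mean of at least 5.327 were tested.

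A linear model with a mean for each of the 10 groups was fitted in limma 3.58.1 (R 4.3.3), with empirical Bayes errors and Benjamini-Hochberg adjustment over all genes tested. Strain differences at T0 and T1 and the interaction were F tests. The text names up to 4 called rises and 4 called falls for each role, the 6 widest called strain ranges for each F test, genes whose probe sets disagree, and the 3 largest called rises and falls of each wider list. Gata1, the 1 erythroid marker called, the genes called for the interaction in the wider lists, and genes given as not called were named after their values were seen. The members and all lists were chosen with earlier results of these data known. The fit was tested on simulated data with 200 genes changed. For mean stimulation it recovered 97% of changes of 0.5 log2 and 100% of changes of 1 log2, and for strain at T0 it recovered 45% and 98%, over 11413 genes. The number of arrays, 3 or 4 a group, limits the precision. Alternatives were 34 fits without 1 array each, and others of filter, normalization, probe sets, variance model and replicate number.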

Additional observations from a re-analysis of the deposited data

Results flagged for a closer look

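In groups of 4 arrays, 9 of 176 gene and group pairs held an array far from the other 3, by the gap to the nearest array divided by the group's range, and chance gives about 1 in 20. Of the 9, 6 were A/J T0 replicate 5. It read 6.45 for Ccne2 against 5.12 to 5.25 on the other 3 arrays (gap 0.899 of the range), 10.70 for Pcna against 10.26 to 10.32 (0.86), 7.64 for Ccnb2 against 6.83 to 6.94 (0.865), 8.34 for Top2a against 7.27 to 7.42 (0.859), 7.70 for Kif11 against 6.39 to 6.57 (0.861) and 7.28 for Prc1 against 6.34 to 6.46 (0.871). A/J T1 replicate 5 read 6.49 for Birc5 against 6.08 to 6.13 (0.884) and 7.99 for Cdt1 against 8.40 to 8.43 (0.933). C57BL/6J T0 replicate 4 read 8.31 for Cdt1 against 8.59 to 8.62 (0.909).

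The response to stimulation differed over strains for Ccnd2 (range of strain responses 1.29 log2), Mcm6 (0.94) and Pcna (0.61) by the interaction test in limma. For 2 more genes, T1 arrays lay apart from T0 arrays in opposite directions in some strains, though no gene had opposite responses called. The share of all genes with such a separation is not given here. Cdkn2d was higher at T1 in A/J and lower in DBA/2J, with no overlap between times in either strain and a range of 0.82 (limma adjusted p = 0.345, and 0.000673 without Balb/c T1 replicate 2). Neither response was called, at 0.33 in A/J (limma adjusted p = 0.142) and -0.49 in DBA/2J (limma adjusted p = 0.0571). Cdt1 was higher at T1 in 129X1/SvJ and lower in C57BL/6J and DBA/2J, with no overlap in any of the 3 and a range of 0.54 (limma adjusted p = 0.12). Its falls in C57BL/6J and DBA/2J were called, and its rise of 0.22 in 129X1/SvJ was not (limma adjusted p = 0.112).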

How the results depend on the processing

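No value changed direction with a call under any of 46 other settings. Of 44 members, 14 differed over strains at T0, 29 at T1 and 3 in their response. Within replicate numbers 1 and 2, all 3 counts were lower, and within numbers 3 to 5 those at T0 and of the response were. Some groups held 1 array in these fits, so their counts are not given here. Leaving out each array in turn gave 7 to 17 at T0, 25 to 31 at T1 and 1 to 7 for the response. The T0 count was 7 without 129X1/SvJ T0 replicate 2, and the response count was 1 without Balb/c T0 replicate 1 and 7 without Balb/c T1 replicate 2. Centring arrays on their medians left 1 response called. With no filter, 58.8% of all calls for stimulation were rises, against 43.8% with it, and the median over all genes was 0.09 against -0.07. Leaving out both Balb/c arrays of replicate 2, a choice made after seeing the data, gave 19 at T0, 31 at T1 and 4 for the response. The shares of all genes called for strain or response outside the main fit are not given here. A shift in these counts can therefore not be set beside that of all genes. Same-numbered T0 and T1 arrays of a strain had deviations that correlated from -0.078 to 0.474, over 0.1 in 14 of 17 pairs. As 3 were not, the main fit did not take the numbers to pair the samples. The M phase level kept the order of numbers at both times in Balb/c and C57BL/6J, and in A/J apart from a tie at T0, though not in DBA/2J or 129X1/SvJ. A/J replicates 1, 2, 4 and 5 read 6.35, 6.23, 6.35 and 7.10 at T0 and 6.38, 6.20, 6.57 and 6.80 at T1. Balb/c replicates 1, 2 and 4 read 6.23, 5.86 and 6.84 at T0 and 6.28, 5.77 and 6.87 at T1. With strain and number as a random replicate block, 8 members rose and 23 fell, where 4264 and 5370 of all 11413 genes did. In that fit, 8 of 17 G2 and M phase genes were called for stimulation in place of 5, and 5 responses were called. With the number over strains as a fixed replicate block, 10 of the 17 were called, where 4229 of all genes rose and 5368 fell. Within numbers 1 and 2, fewer of the 17 were called than in the main fit. Where a call was lost or gained, the cause was not tested. Dim genes limit what is measured: a group mean under 5.327 lies in the lower part of all values, and its differences are less exact.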
